A study of Homo sapiens with 12 samples.

Results

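The interleukin-6 (IL6) family was followed in 12Z cells through 10 genes, chosen by name for their place in the pathway out of the 60617 gene identifiers counted. The choice was made with earlier results of these data known. They were the ligands IL6, LIF, IL11 and CLCF1, the receptor chains IL6ST, LIFR, OSMR and IL6R, the transcription factor STAT3 and the feedback inhibitor SOCS3. All 10 passed the filter on low counts and were tested.

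12Z is an immortalized epithelial line derived from ectopic endometriosis. The study asked whether an activating mutation of PIK3CA, the catalytic subunit of phosphoinositide 3-kinase, alters how such cells respond to insulin. Polyadenylated RNA was sequenced from 4 groups of 3 libraries each, described as independent experiments. H1047R insulin cells carried a transient pBabe plasmid encoding PIK3CA H1047R and were given 100 nM insulin for 24 h after 4 h without serum. H1047R vehicle cells carried the same plasmid and were given vehicle. Control insulin and control vehicle cells carried the empty pBabe vector. Every group, controls included, had also received a non-targeting siRNA. One line was used, so that values describe 12Z cells under transient overexpression on top of their own PIK3CA alleles.

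Cytokines of this family act through receptor complexes that share the signal-transducing chain IL6ST, also called gp130. IL6 and IL11 first bind their own non-signalling receptors, IL6R and IL11RA, and then engage IL6ST pairs, whereas LIF and CLCF1 signal through IL6ST joined to LIFR, and oncostatin M through IL6ST joined to OSMR or LIFR. The chains activate JAK kinases, which phosphorylate STAT3, and STAT3 in turn induces SOCS3, which closes the loop by binding IL6ST and its JAKs. In the endometrium LIF and IL11 are known for their part in implantation and decidualization.

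Promoter windows in RefSeq (GRCh38.p14) were matched for 8 of the 10 genes, in 11 windows, and LIF and CLCF1 had none in the table used. The 250 bases before the start site are printed for IL6 and IL11, the ligands with the largest fold changes in the data below. Capitals mark a match to the NF-κB consensus in IL6 and a match to the AP-1 motif TGANTCA in IL11.
IL6, chr7:22726950-22727199, plus strand: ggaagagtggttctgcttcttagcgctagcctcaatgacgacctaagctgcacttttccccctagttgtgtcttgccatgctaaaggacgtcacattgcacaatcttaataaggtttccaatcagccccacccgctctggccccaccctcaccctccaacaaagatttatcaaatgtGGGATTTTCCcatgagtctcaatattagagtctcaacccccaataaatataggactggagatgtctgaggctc
IL11, chr19:55370464-55370713, minus strand: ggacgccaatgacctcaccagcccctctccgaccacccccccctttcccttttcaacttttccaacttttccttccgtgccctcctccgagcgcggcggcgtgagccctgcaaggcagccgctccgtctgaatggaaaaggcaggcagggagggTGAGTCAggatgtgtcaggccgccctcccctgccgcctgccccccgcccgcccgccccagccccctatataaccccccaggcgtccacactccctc
The IL11 window held 1 AP-1 match, TGAGTCA, beginning 96 bases before the start, and no NF-κB match. The IL6 window held 1 NF-κB match, GGGATTTTCC, beginning 73 bases before the start, and no exact AP-1 match. Gene positions below are those of GENCODE v44 on hg38. Both strands were searched, and matches of different motifs did not overlap in these windows. The motif TTCNNNGAA, bound by STAT factors, was in neither. Of 35116 windows of the same length, 6.573% held the AP-1 motif, 9.961% the NF-κB consensus and 6.567% the STAT motif. These matches describe letters in a window and were not tested for binding.

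Libraries held between 21483124 and 37918025 counts assigned to genes. The 3 H1047R insulin libraries were the deepest (30071951 to 37918025, against 21483124 to 29255708 elsewhere) and had fewer multimapping reads, 8.48% to 9.51% against 13.6% to 15.4%. PIK3CA, which checks the plasmid, stood at 734, 714 and 715 CPM (gene counts relative to the library size, scaled by TMM) in H1047R insulin cells and at 312, 180.1 and 215 CPM in H1047R vehicle cells. It stood at 81.0, 85.9 and 80.9 CPM in control insulin cells and at 89.0, 88.2 and 88.6 CPM in control vehicle cells. PIK3CA RNA was therefore 3.06-fold higher in insulin than in vehicle among H1047R cells. The insulin effect in these cells and the higher PIK3CA RNA cannot be told apart. These counts do not measure the amount of plasmid. H1047R vehicle replicate 1 stood apart from replicates 2 and 3 with its 312 CPM, and values without it are given beside the main results that use its group. Leaving it out takes away the H1047R vehicle library with the most PIK3CA RNA, which widens the PIK3CA gap between the 2 H1047R groups. For insulin in H1047R cells it gave the largest change of any single leave-out for IL6, LIF, IL11 and LIFR. Of 10 epithelial markers 7 were above 1 CPM (CDH1 and CLDN4 were low, and EPCAM, CLDN3 and ESRP1 were under 1 CPM), while all 9 stromal markers were above 1 CPM. The summed epithelial markers were 3279 to 3297 CPM in H1047R insulin cells, against 2915 to 3254 CPM in the other groups. The summed stromal markers were 6014 to 6245 CPM in H1047R insulin cells, against 8204 to 8824 CPM in the other groups. With insulin in H1047R cells 8 of the 9 stromal markers fell, and VIM rose from a mean of 2043 to 2291 CPM. Of the 10 epithelial markers 1 rose and 1 fell. Among all genes tested 9.85% rose and 9.8% fell in this comparison. The part of these markers in the results was not tested. The summed leukocyte markers were at 4.01 to 6.72 CPM, with CD3E and TYROBP at 0 in all libraries, and the summed endothelial markers at 6.14 to 9.70 CPM.

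The 3 ligands IL6, LIF and IL11 rose with insulin in H1047R cells, and in control cells none of them rose and LIF fell. LIFR fell with insulin in both backgrounds, more so with H1047R. STAT3, SOCS3 and IL6R did not pass the test in any comparison. A gene is said to have risen or fallen only at a false discovery rate (FDR) below 0.001 in edgeR's quasi-likelihood test, with Benjamini-Hochberg adjustment over 22756 genes, and fold changes are on the log2 scale with their standard error.

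**Figure D1:**
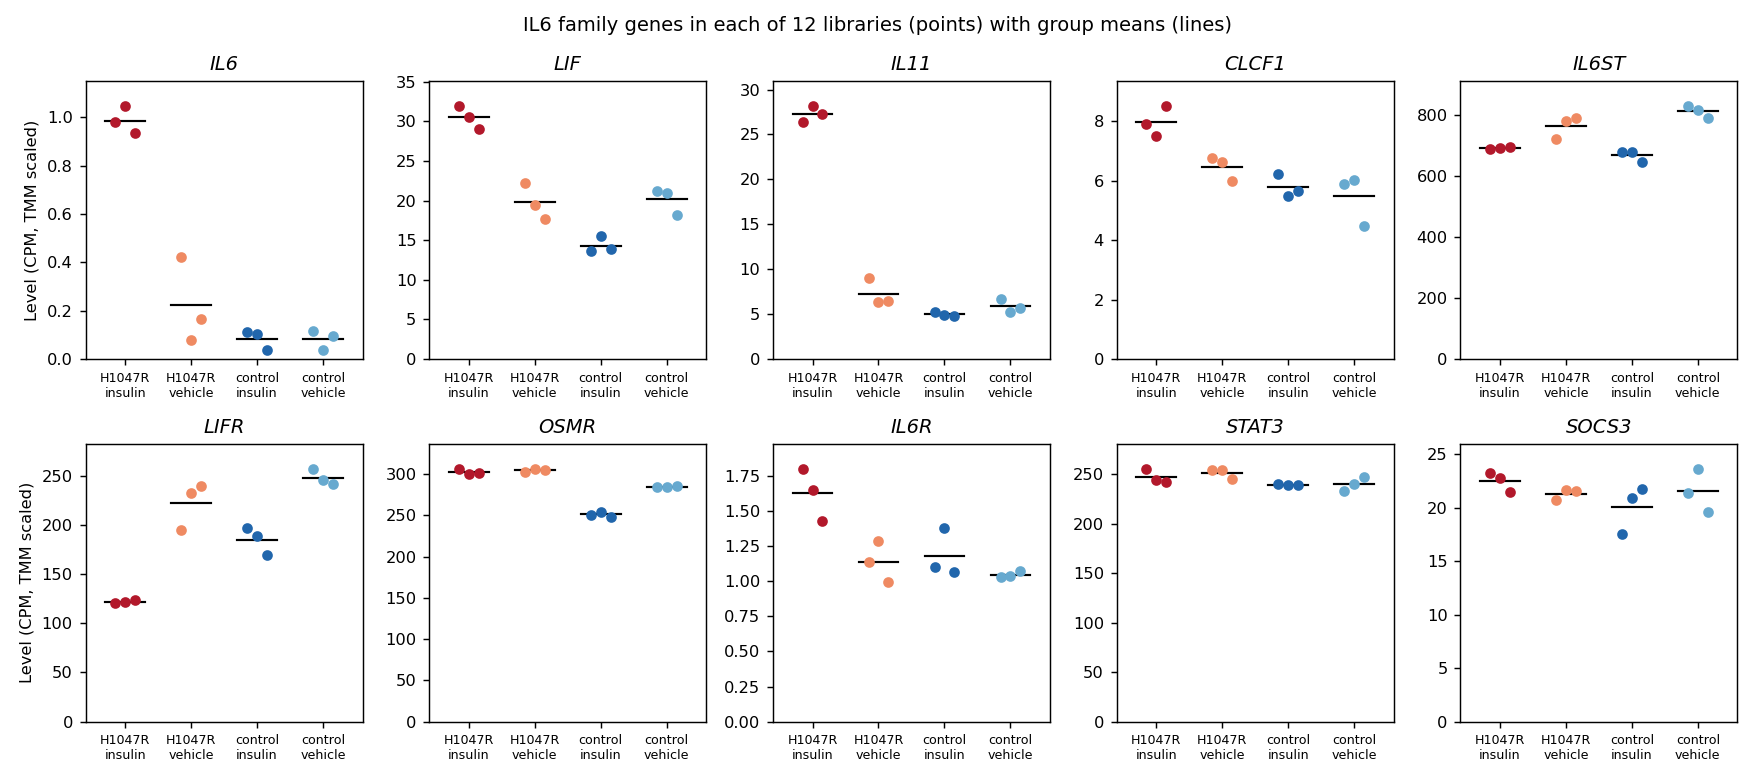
Level of each of the 10 genes in CPM (vertical axes, each from 0) in the 12 libraries, by group; points are libraries and lines are group means. IL6 and IL11 were highest in the 3 H1047R insulin libraries (0.933 to 1.05 CPM and 26.4 to 28.1 CPM), and LIFR was lowest there (120.6 to 123.6 CPM).

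IL11, a cytokine of decidualizing stroma and of fibrosis (chr19:55364382-55370463, minus strand), showed the clearest response. It had 26.4, 28.1 and 27.2 CPM in H1047R insulin libraries, against 8.97, 6.31 and 6.46 CPM in H1047R vehicle libraries. It had 5.25, 4.92 and 4.77 CPM in control insulin libraries, against 6.70, 5.28 and 5.69 CPM in control vehicle libraries. Every H1047R insulin library lay above all 9 others, and the 2 control groups were separated only narrowly. Insulin raised IL11 by 1.92 ± 0.0908 in H1047R cells (adjusted p = 3.47e-20, edgeR), and by 2.12 without H1047R vehicle replicate 1. With single libraries left out the rise lay between 1.82 and 2.12. In control cells the difference was -0.24 ± 0.121 (95% interval -0.49 to 0.00, adjusted p = 0.3126, edgeR). The difference between the 2 insulin effects was itself 2.16 ± 0.153 (adjusted p = 2.795e-14, edgeR), and 2.37 without that library. PIK3CA had a difference of 1.72 ± 0.123 in the same test.

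LIF, the implantation cytokine (chr22:30240453-30246759, minus strand), moved in opposite directions in the 2 backgrounds. It had 31.9, 30.6 and 29.1 CPM in H1047R insulin libraries, against 22.3, 19.4 and 17.7 CPM in H1047R vehicle libraries. It had 13.6, 15.5 and 13.9 CPM in control insulin libraries, against 21.2, 21.02 and 18.2 CPM in control vehicle libraries. The groups did not overlap in either comparison, and the 2 vehicle groups did. Insulin raised LIF by 0.62 ± 0.0716 in H1047R cells (adjusted p = 2.251e-09, edgeR), and by 0.74 without H1047R vehicle replicate 1. With single libraries left out the rise lay between 0.55 and 0.74. In control cells LIF fell, with a log2 fold change of -0.50 ± 0.0793 (adjusted p = 2.697e-05, edgeR). The 2 effects differed by 1.12 ± 0.107 (adjusted p = 8.516e-11, edgeR), and by 1.24 without that library.

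IL6 (chr7:22725884-22732002, plus strand) was the rarest of the ligands, and its raw counts are more telling than its CPM. The H1047R insulin libraries held 30, 38 and 36 IL6 counts, against 10, 2 and 4 in the H1047R vehicle libraries. The control insulin libraries held 3, 3 and 1 counts, against 3, 1 and 2 in the control vehicle libraries. All 3 H1047R insulin libraries were above the other 9, and 10 of the 16 counts in H1047R vehicle cells came from replicate 1. Summed over libraries and scaled for depth, the ratio of insulin to vehicle was 4.53 in H1047R cells (exact 95% interval 2.66 to 8.22, counting error only) and 1.07 in control cells (0.307 to 3.85). In edgeR IL6 rose by 2.15 ± 0.409 with insulin in H1047R cells (adjusted p = 3.964e-05), and by 3.01 without replicate 1 of the H1047R vehicle group. Without replicate 2 of that group the rise was 1.74 and the adjusted p was 0.001285 (edgeR), over the threshold. The test of the difference between the 2 insulin effects gave 2.07 ± 0.993 (95% interval 0.06 to 4.08, adjusted p = 0.1488, edgeR), and 2.93 (adjusted p = 0.03585, edgeR) without H1047R vehicle replicate 1. Neither passed the threshold, so that IL6 was not shown to respond differently in the 2 backgrounds at this depth.

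CLCF1, a ligand that binds the ciliary neurotrophic factor receptor, varied least of the 4. It had 7.90, 7.51 and 8.50 CPM in H1047R insulin libraries and 6.78, 6.62 and 6.01 CPM in H1047R vehicle libraries. It had 6.24, 5.50 and 5.65 CPM in control insulin libraries and 5.90, 6.03 and 4.48 CPM in control vehicle libraries. H1047R insulin libraries were above all others, but insulin gave 0.30 ± 0.104 in H1047R cells (95% interval 0.09 to 0.51, adjusted p = 0.02025, edgeR; 0.36 without H1047R vehicle replicate 1) and 0.07 ± 0.115 in control cells (95% interval -0.17 to 0.30). The exons of CLCF1 share 61 bases (3.32% of their length) with a gene on the same strand, ENSG00000256514, in GENCODE v44.

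Among the receptors, IL6ST, the shared signalling chain, had 690, 693 and 697 CPM in H1047R insulin libraries, against 720, 781 and 790 CPM in H1047R vehicle libraries. It had 680, 678 and 647 CPM in control insulin libraries, against 829, 817 and 792 CPM in control vehicle libraries. Insulin libraries were below vehicle libraries in both backgrounds. IL6ST fell by 0.28 ± 0.0365 in control cells (adjusted p = 5.334e-07, edgeR), and had a log2 fold change of -0.14 ± 0.0364 in H1047R cells (adjusted p = 0.002188, edgeR), which missed the threshold. Without H1047R vehicle replicate 1 that value was -0.15 with an adjusted p of 0.0008143 (edgeR), which passed it. The difference between the 2 insulin effects, 0.14 ± 0.0515 (95% interval 0.04 to 0.25, adjusted p = 0.04144, edgeR), was not called, with 0.13 without that library.

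LIFR, the partner of IL6ST for LIF and CLCF1 (chr5:38474668-38608354, minus strand), was the only receptor of the 4 whose insulin effect differed between backgrounds in edgeR. It had 120.6, 121.2 and 123.6 CPM in H1047R insulin libraries, against 195, 232 and 239 CPM in H1047R vehicle libraries. It had 197, 189 and 169 CPM in control insulin libraries, against 257, 245 and 242 CPM in control vehicle libraries. The groups did not overlap in either insulin comparison. The lowest LIFR levels of the series were in the 3 libraries with the highest LIF levels. In control cells, however, insulin lowered both, LIF with a log2 fold change of -0.50. Over the 12 libraries Pearson's r of log2(CPM + 1) was -0.608 for LIF and LIFR, and a relation between them was not tested. LIFR had a log2 fold change of -0.87 ± 0.0524 with insulin in H1047R cells (adjusted p = 5.75e-17, edgeR), and of -0.92 without H1047R vehicle replicate 1. With single libraries left out it lay between -0.92 and -0.81. The value was -0.42 ± 0.0517 in control cells (adjusted p = 1.608e-07, edgeR). The difference between them was -0.44 ± 0.0733 (adjusted p = 1.109e-05, edgeR), and -0.50 without that library.

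OSMR, the oncostatin M receptor chain, lies near LIFR (chr5:38845858-38945596, plus strand) and did not follow it. It had 306, 300.1 and 301 CPM in H1047R insulin libraries and 302, 306 and 305 CPM in H1047R vehicle libraries. It had 251, 254 and 248 CPM in control insulin libraries and 284, 284 and 286 CPM in control vehicle libraries. The control insulin libraries were the lowest of the series, and the 2 H1047R groups overlapped. OSMR fell by 0.18 ± 0.0357 with insulin in control cells (adjusted p = 0.0007784, edgeR), a call near the threshold that was kept in 7 of 21 alternative analyses, with log2 fold changes between -0.19 and -0.17. In H1047R cells the log2 fold change was -0.01 ± 0.0354 (95% interval -0.08 to 0.06), and 0.01 without H1047R vehicle replicate 1. The difference between the 2 effects, 0.17 ± 0.0503, was not called by edgeR (adjusted p = 0.01114) but was by DESeq2 (0.19, adjusted p = 0.0001416), and without that library it was 0.20 (adjusted p = 0.004164, edgeR). As a description, the ratio of LIFR to OSMR per exon length was 0.238 (range 0.232 to 0.242) in H1047R insulin libraries and 0.430 (0.381 to 0.462) in H1047R vehicle libraries. It was 0.434 (0.403 to 0.462) in control insulin libraries and 0.514 (0.500 to 0.533) in control vehicle libraries.

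IL6R, the receptor chain specific to IL6, was low in every library, between 0.994 and 1.80 CPM. Its log2 fold change with insulin was 0.50 ± 0.209 in H1047R cells (95% interval 0.08 to 0.92, adjusted p = 0.06072, edgeR; 0.52 without H1047R vehicle replicate 1) and 0.18 ± 0.232 in control cells (95% interval -0.29 to 0.65). H1047R insulin libraries had 1.80, 1.65 and 1.43 CPM, against 1.14, 1.29 and 0.994 CPM in H1047R vehicle libraries, without overlap.

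STAT3, the transcription factor of the pathway, stayed between 233 and 255 CPM in the 12 libraries. Its log2 fold change with insulin was -0.03 ± 0.0377 in H1047R cells (95% interval -0.10 to 0.05) and -0.01 ± 0.0379 in control cells (95% interval -0.08 to 0.07). SOCS3, the inhibitor that STAT3 induces, stayed between 17.5 and 23.6 CPM. Its values with insulin were 0.08 ± 0.0715 in H1047R cells (95% interval -0.07 to 0.22) and -0.11 ± 0.0738 in control cells (95% interval -0.26 to 0.04). Without H1047R vehicle replicate 1 the values in H1047R cells were 0.01 for STAT3 and 0.08 for SOCS3. Phosphorylation of STAT3 was not measured.

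**Figure D2:**
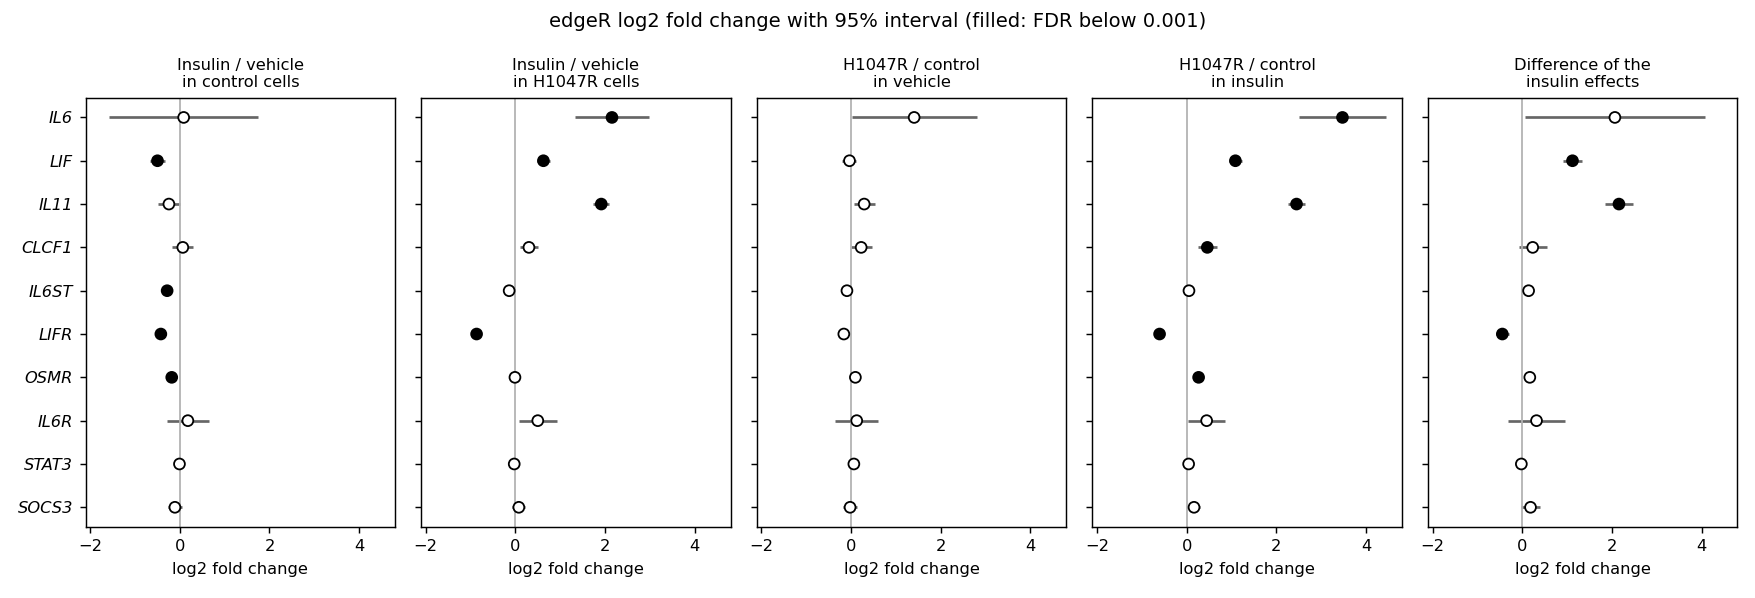
Log2 fold change (horizontal axes) of the 10 genes (rows) in the 5 comparisons (panels), with 95% intervals from edgeR; filled points are at an FDR below 0.001. IL6, LIF and IL11 are filled on the right of 0 for insulin in H1047R cells, LIFR on the left, and no gene is filled for H1047R in vehicle.

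By count, insulin in H1047R cells raised 3 of the 10 genes and lowered 1, against 9.85% of all genes tested that rose and 9.8% that fell. Their median log2 fold change was 0.19, and that of all genes -6.0e-04. In control cells insulin raised none and lowered 4 (LIF, IL6ST, LIFR and OSMR), against 0.483% of all genes that rose and 1.15% that fell. Of the 10, 0 rose at an unadjusted p under 0.05 in edgeR, against 1898 of all 22756 genes tested. DESeq2 called 0 of the 10 higher at an FDR below 0.001. The median was -0.14, and that of all genes 0.00. The insulin effects differed for 3 genes, with a larger value in H1047R cells for LIF and IL11 and a smaller one for LIFR. Over all genes tested 4.58% had a larger value and 4.49% a smaller one. DESeq2 called 3 larger (OSMR as well) and 1 smaller. The medians of this difference were 0.21 for the 10 genes and -0.01 for all genes. Both insulin comparisons are part of that difference and are not independent of it.

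H1047R alone, in vehicle, gave no call among the 10 genes in edgeR or DESeq2, against 0.141% of all genes that rose and 0.0176% that fell. At an unadjusted p under 0.05 in edgeR, 3 of the 10 were higher and 2 lower, against 1250 higher and 1464 lower of all 22756 genes tested. IL6 had a log2 fold change of 1.41 ± 0.691 (95% interval 0.01 to 2.81, adjusted p = 0.4125, edgeR), which was 0.57 without H1047R vehicle replicate 1. IL11 had 0.29 ± 0.116 (95% interval 0.06 to 0.53) and 0.11 without that library, and LIFR had -0.16 ± 0.0515 (95% interval -0.26 to -0.06) and -0.08 without it. The library with the most PIK3CA RNA of the 3 was also the one with the most IL6, IL11 and LIF and the least LIFR and IL6ST of its group. Between the other libraries this order held only in part. H1047R vehicle replicate 3 had more PIK3CA RNA than replicate 2 (215 against 180.1 CPM), and slightly more IL6 and IL11. It had less LIF (17.7 against 19.4 CPM), but more LIFR (239 against 232 CPM) and IL6ST (790 against 781 CPM). A relation to the level of PIK3CA RNA was not tested.

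With insulin present, H1047R cells differed from control cells in 6 of the 10 genes, 5 higher and 1 lower, against 11.4% of all genes that were higher and 12% that were lower. IL6 was higher by 3.48 ± 0.48 (adjusted p = 1.045e-07, edgeR), a summed count ratio of 11.6 (exact 95% interval 5.46 to 29.7). IL11 was higher by 2.45 ± 0.0947, LIF by 1.09 ± 0.0736, CLCF1 by 0.46 ± 0.104 (adjusted p = 0.0003258, edgeR) and OSMR by 0.27 ± 0.0355 (adjusted p = 4.183e-08, edgeR). LIFR had a log2 fold change of -0.60 ± 0.0523. SOCS3 had 0.17 ± 0.0709 (95% interval 0.02 to 0.31, adjusted p = 0.06135, edgeR), IL6ST 0.05 ± 0.0364 (95% interval -0.02 to 0.13) and STAT3 0.05 ± 0.0376 (95% interval -0.03 to 0.12), none of them called. The CLCF1 call was lost when any one of control insulin replicates 2 and 3 and H1047R insulin replicates 1 and 3 was left out (highest adjusted p = 0.004965, edgeR). The medians were 0.36 for the 10 genes and -0.02 for all genes. This comparison shares its H1047R insulin libraries with the insulin comparison above.

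Levels of different genes were set side by side only per kilobase of exons. The length used was the union of all annotated exons of a gene, not that of the transcripts present in these cells. The order and ties between genes depend on that choice, and the SD holds only the spread between libraries. In H1047R insulin cells IL6ST came first with 57.5 ± 0.294 CPM per kb (SD, n = 3), followed by OSMR with 42.2 ± 0.461 and STAT3 with 22.0 ± 0.645. IL11 at 10.2 ± 0.332 and LIFR at 10.0 ± 0.131 did not differ beyond their spread, nor did SOCS3 at 8.24 ± 0.334 and LIF at 7.89 ± 0.368. CLCF1 had 4.34 ± 0.273, and IL6R at 0.232 ± 0.0267 and IL6 at 0.228 ± 0.013 did not differ beyond their spread either. In control vehicle cells IL11 took a lower place, and some distances between genes differed. SOCS3 at 7.88 ± 0.73 and LIF at 5.21 ± 0.44 were apart there, as were IL6R at 0.1495 ± 0.0035 and IL6 at 0.0188 ± 0.0094. LIFR, at 20.4 ± 0.639, stood beside STAT3 at 21.5 ± 0.638, with ranges of 1 SD that overlap, and IL11, at 2.20 ± 0.272, stood below CLCF1 at 2.98 ± 0.468.

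**Figure D3:**
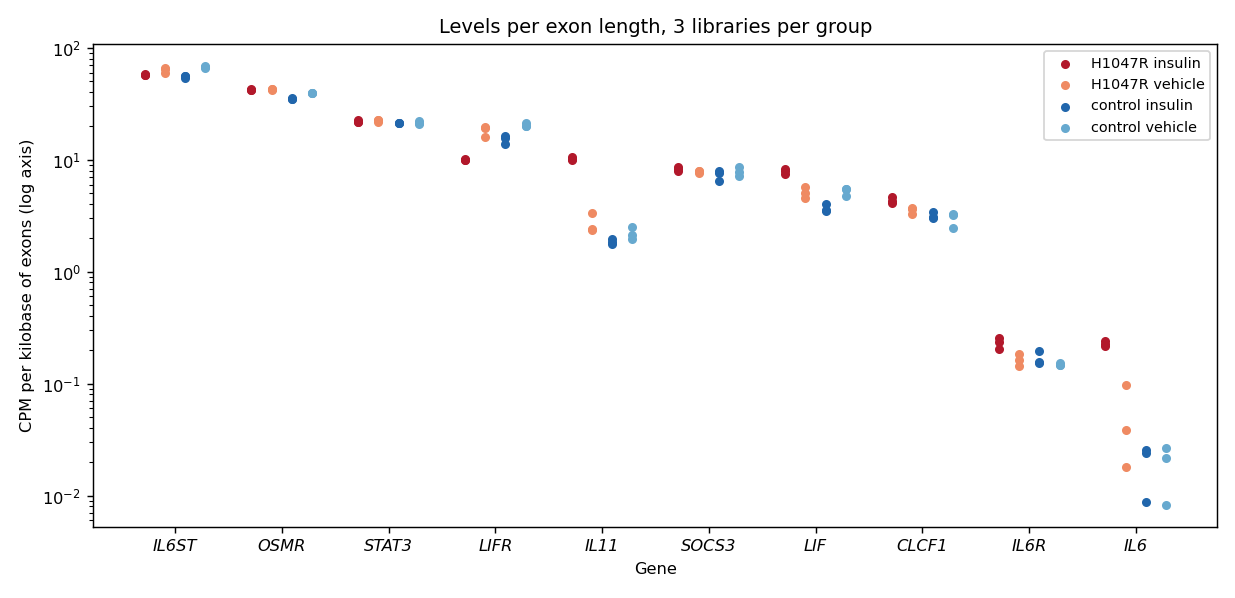
Level per exon length (CPM per kilobase of all annotated exons of the gene, log axis) of the 10 genes in the 3 libraries of each group (colours). The receptor chains IL6ST and OSMR lie above the ligands in every group, IL11 reaches the level of LIFR only in H1047R insulin cells (10.2 and 10.0), and IL6 and IL6R lie lowest.

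The genes whose pattern over the 12 libraries was most like that of the 3 responding ligands were sought among genes averaging at least 10 CPM, by Pearson's r of log2(CPM + 1). For IL11 they were IGFBP3 (0.998), CDCP1 (0.997) and CCND1 (0.996), for IL6 SERTAD1 (0.996), AEN (0.995) and GRB10 (0.992), and for LIF COL13A1 (0.986), IRS1 (0.976) and DUSP4 (0.9745). Among the 10 genes themselves, IL11 had 0.987 with IL6, 0.906 with LIF, 0.837 with CLCF1 and -0.854 with LIFR. The 12 libraries fall into 4 groups, so that these values describe differences between groups as well as the spread within them.

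Of 11 other ligands and receptors of the family, 8 were tested and 1 was called, lower, with insulin in H1047R cells, where 9.8% of all genes tested were lower. With 1 call among 8 genes, nothing is read from that count about the list. That gene was IL11RA, which binds IL11 before IL6ST is engaged. It had 2.16, 2.70 and 2.57 CPM in H1047R insulin libraries, against 4.21, 3.93 and 4.43 CPM in H1047R vehicle libraries, without overlap. Its log2 fold change was -0.75 ± 0.137 (adjusted p = 2.104e-05, edgeR), and -0.72 without H1047R vehicle replicate 1. In control cells IL11RA had -0.12 ± 0.135 (95% interval -0.39 to 0.15), and the difference between the 2 effects, -0.63 ± 0.192 (adjusted p = 0.01384, edgeR), was not called. IL27RA, the IL27 receptor chain, had -0.38 ± 0.0954 with insulin in H1047R cells (adjusted p = 0.001233, edgeR) and 0.05 ± 0.097 in control cells, neither of them called. None of the list was called in the other 4 comparisons, in edgeR or in DESeq2. At an unadjusted p under 0.05 in edgeR the list had 0 genes for insulin in control cells and 0 for H1047R in vehicle. It had 1 higher and 3 lower for H1047R in insulin, against 4895 and 5323 of all 22756 genes tested. For the difference of insulin effects it had 2 lower, against 3648 of all genes. OSM, the ligand of OSMR, had no count in any library except control insulin replicates 2 and 3, with 1 and 2 counts.

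Of 17 kinases, other STATs, phosphatases, inhibitors and shedding proteases of the pathway, insulin raised 4 and lowered 3 in H1047R cells, where 9.85% of all genes tested rose and 9.8% fell. SOCS2, a relative of SOCS3, rose by 0.76 ± 0.105 (adjusted p = 1.415e-07, edgeR), and averaged 9.65 ± 1.02 CPM in H1047R insulin cells and 5.68 ± 0.208 CPM in H1047R vehicle cells (SD, n = 3 each). STAT5A had -0.41 ± 0.0661 (adjusted p = 3.244e-06, edgeR), with 15.99 ± 0.279 CPM in H1047R insulin cells and 21.2 ± 1.36 CPM in H1047R vehicle cells (SD, n = 3 each). JAK1, a kinase bound by IL6ST, fell by 0.17 ± 0.0385 (adjusted p = 0.000377, edgeR), and JAK2 rose by 0.40 ± 0.0737 (adjusted p = 2.278e-05, edgeR). In control cells none of the 17 was called by edgeR or DESeq2, with 3 higher and 0 lower at an unadjusted p under 0.05 in edgeR. At that level 1898 of all 22756 genes tested were higher and 1833 lower. PTPN11, a phosphatase recruited by IL6ST, had -0.07 ± 0.038 in H1047R cells (95% interval -0.15 to 0.00) and 0.14 ± 0.038 in control cells (95% interval 0.06 to 0.21), neither of them called. The median of the list was 0.05 for insulin in H1047R cells and 0.03 in control cells. For H1047R in vehicle none was called by edgeR or DESeq2, with 1 higher at an unadjusted p under 0.05 in edgeR (1250 of all 22756 genes). For H1047R in insulin 4 were higher and 2 lower (11.4% and 12% of all genes). The insulin effects differed for 1 of the 17, with a larger value in H1047R cells, against 4.58% of all genes. DESeq2 called 2 larger and 1 smaller. Nothing is read from these counts about the list. Without H1047R vehicle replicate 1 the counts were again 4 and 3 for insulin in H1047R cells and 4 and 2 for H1047R in insulin, with SOCS2 at 0.77, STAT5A at -0.33, JAK1 at -0.17 and JAK2 at 0.42 for insulin in H1047R cells.

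Of 22 genes known to be induced through STAT3 in at least some cell types, 16 were tested, and insulin in H1047R cells raised 9 and lowered 2, against 9.85% and 9.8% of all genes. IRF1, an interferon-response factor, had 75.4, 77.1 and 76.5 CPM in H1047R insulin libraries, against 40.2, 29.7 and 31.4 CPM in H1047R vehicle libraries, and rose by 1.18 ± 0.0629 (adjusted p = 1.154e-18, edgeR). CCND1, which encodes cyclin D1 of the G1 phase, had 323, 331 and 328 CPM in H1047R insulin libraries, against 183, 152 and 165 CPM in H1047R vehicle libraries, and rose by 0.97 ± 0.0481. JUNB, an AP-1 subunit, rose by 0.87 ± 0.0807. CEBPD, a C/EBP factor, and PIM1, a survival kinase, had -0.67 ± 0.103 (adjusted p = 1.087e-06, edgeR) and -0.42 ± 0.0554 (adjusted p = 4.064e-08, edgeR). TIMP1, an inhibitor of metalloproteinases, had -0.06 ± 0.0412 (95% interval -0.15 to 0.02) and was not called. The list thus had calls in both directions, with a median of 0.35. Without H1047R vehicle replicate 1, 10 rose and 2 fell, with IRF1 at 1.35, CCND1 at 1.07, JUNB at 1.02, CEBPD at -0.64 and PIM1 at -0.43.

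In control cells 3 of the list fell, MYC (-0.39 ± 0.0527), PIM1 (-0.37 ± 0.056) and ICAM1 (-0.33 ± 0.0493), against 1.15% of all genes. None rose in edgeR or DESeq2, with 0 higher at an unadjusted p under 0.05 in edgeR, against 1898 of all 22756 genes. MCL1, an inhibitor of apoptosis, had 0.02 ± 0.0376 (95% interval -0.06 to 0.10). The median was -0.15. The insulin effects differed for 8 of the 16, all with a larger value in H1047R cells, led by IRF1 (1.35 ± 0.0948), against 4.58% of all genes with a larger value. Without H1047R vehicle replicate 1 they differed for 10. With insulin present 12 were higher and 1 lower in H1047R than in control cells (11.4% and 12% of all genes). None was called for H1047R in vehicle in edgeR or DESeq2. There 5 were higher and 1 lower at an unadjusted p under 0.05 in edgeR, against 1250 and 1464 of all 22756 genes. The acute-phase genes SERPINA3, HP and FGB had no count in any library.

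Of 13 genes for the AP-1, NF-κB, C/EBP and related factors, or their inhibitors, that are known to act on ligand genes such as IL6 and IL11, insulin raised 11 in H1047R cells and lowered none, against 9.85% and 9.8% of all genes. JUNB, FOS and CEBPB stand in both this list and the one before. ATF3, a stress-induced factor, had 45.1, 43.8 and 43.5 CPM in H1047R insulin libraries, against 15.2, 7.52 and 8.66 CPM in H1047R vehicle libraries, and rose by 2.09 ± 0.107 (adjusted p = 4.192e-19, edgeR). FOSL1, an AP-1 subunit, had 76.6, 76.6 and 73.9 CPM in H1047R insulin libraries, against 26.0, 17.8 and 19.1 CPM in H1047R vehicle libraries, and rose by 1.85 ± 0.0754 (adjusted p = 2.79e-22, edgeR). TNFAIP3, an inhibitor of NF-κB that NF-κB induces, rose by 1.72 ± 0.0838. FOSL2, another AP-1 subunit, had 0.14 ± 0.0416 (adjusted p = 0.006182, edgeR) and was not called. For ATF3 and FOSL1, H1047R vehicle replicate 1 was again the highest of its group. Without it 13 of the 13 rose, FOS and FOSL2 now among them, with ATF3 at 2.47, FOSL1 at 2.06 and TNFAIP3 at 1.98. None of the 13 fell at an unadjusted p under 0.05 in edgeR (4659 of all 22756 genes did) or was called lower by DESeq2. The median was 0.45.

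In control cells none of the 13 was called by edgeR or DESeq2, and the median was -0.10. At an unadjusted p under 0.05 in edgeR 1 was higher and 6 lower, against 1898 and 1833 of all 22756 genes. ATF4, a factor of the stress response, had 0.11 ± 0.0448 (95% interval 0.01 to 0.20). Without H1047R vehicle replicate 1, FOSL1 was called lower there (-0.40, adjusted p = 5.271e-05, edgeR). The insulin effects differed for 10 of them, all with a larger value in H1047R cells, against 4.58% of all genes, and for 11 without that library. H1047R in vehicle raised 1, ATF3, by 1.11 ± 0.149 (adjusted p = 1.516e-05, edgeR), a gene that DESeq2 did not call. The value was 0.74 (adjusted p = 1.84e-05, edgeR) without H1047R vehicle replicate 1, in which ATF3 had 15.2 CPM, against 5.06, 4.57 and 4.85 CPM in control vehicle libraries. H1047R in insulin raised 12 (11.4% of all genes), and 13 without that library. The genes of these lists and the 10 family members come from the same libraries, in which PIK3CA RNA also differed, and which of them precedes another was not tested.

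**Figure D4:**
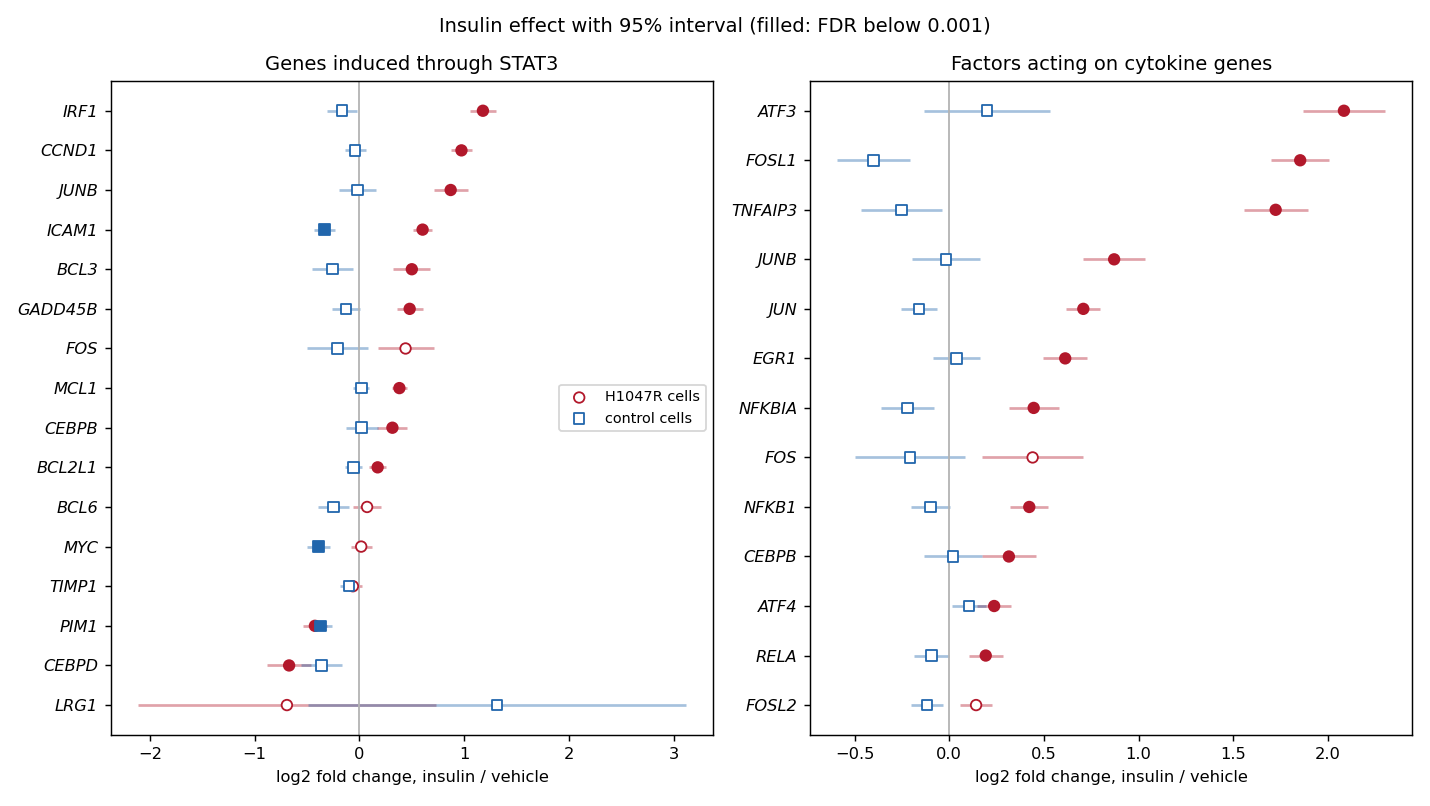
Log2 fold change with insulin (horizontal axes, with 95% intervals from edgeR) in H1047R cells (circles) and control cells (squares). The left panel holds the tested genes known to be induced through STAT3 in at least some cell types. The right panel holds the factors acting on ligand genes. Filled symbols are at an FDR below 0.001. Whether STAT3 drove any of these changes was not tested. In H1047R cells IRF1 (1.18) and ATF3 (2.09) lead the panels and CEBPD lies at -0.67, while 3 symbols are filled for control cells on the left and none on the right.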

How the data were processed

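Poly(A) RNA (500 ng per library) was sequenced from 12Z cells in 4 groups of 3, grouped by the treatment given in the labels. Per the labels and methods, reads were trimmed (cutadapt, Trim Galore) and aligned to hg38 by STAR, and the authors deposited its raw counts per gene, unstranded and for each strand. The methods name GENCODE vM16, a mouse release, as the annotation, so the human release is uncertain, and tool versions were not given in the sources used here. Counts of the reverse strand were used, since 93.5% to 93.7% of stranded counts fell on that strand. Rows that name no gene stayed out (unmapped 3.12% to 4.09%, multimapping 8.48% to 15.4%, no feature 3.91% to 4.55%, ambiguous 3.31% to 3.61%). Of 60617 identifiers, 60357 matched GENCODE v44, which gave names, positions and exon lengths (the union of all annotated exons of a gene).

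Genes averaging at least 1 count were fitted with edgeR 4.0.16 (R 4.3.3; TMM, quasi-likelihood, 4 groups, 8 residual degrees of freedom), and 5 contrasts were tested at an FDR below 0.001. Intervals of IL6 count ratios are exact binomial. The family and the other gene lists were chosen with earlier results of these data known. All family genes are described; of other lists, counts are given with up to 3 called genes of the largest change and the uncalled gene with the highest mean CPM, the last for the insulin comparisons. JAK1, JAK2, OSM, CEBPD, PIM1 in H1047R cells and the acute-phase genes are named outside this rule, chosen after their values were seen. A called gene of the kinase list is not reported here by name. The 3 libraries of a group are described as independent experiments. Alternatives were DESeq2 1.42.0, other scalings and filters, counts without strand, a replicate block, only the groups compared, an FDR of 0.05 and leaving out each library. Leaving out H1047R vehicle replicate 1 for the other lists was added after seeing the data.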

Additional observations from a re-analysis of the deposited data

Results flagged for a closer look

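The insulin effect differed between H1047R and control cells for 3 of the 10 family genes, by edgeR's test of the difference itself. Among all genes tested 4.58% had a larger value in H1047R cells and 4.49% a smaller one. The difference of log2 fold changes (H1047R minus control) was 1.12 for LIF, 2.16 for IL11 and -0.44 for LIFR. LIF rose in 3 of 3 H1047R insulin libraries above every H1047R vehicle library and lay in 3 of 3 control insulin libraries below every control vehicle library. Each of the 3 calls was kept in all 20 alternative analyses. PIK3CA RNA differed in the same test by 1.72 on the log2 scale, and the 2 cannot be told apart. Groups of 3 are too small for the search for single outlying libraries.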

How the results depend on the processing

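Of 17 called results of family genes, 14 kept their call in every alternative that tested them, and none changed sign. IL6 with insulin in H1047R cells was no longer called from unstranded counts (adjusted p = 0.001972, edgeR) and without H1047R vehicle replicate 2 (0.001285), and was not tested under a filter of 1 CPM in 3 libraries. OSMR with insulin in control cells and CLCF1 for H1047R in insulin lost theirs as given in the report. Of 33 results not called, 8 changed sign in some alternative and 4 were called in some. For insulin in H1047R cells OSMR turned to 8e-04 with DESeq2 size factors, 0.0236 with library totals, 0.0188 with no filter and 7e-04 in DESeq2, and STAT3 to 0.0073 with library totals and 0.0023 with no filter. The STAT3 difference of insulin effects turned to 0.0093 and 0.0092 under those 2 settings. When single libraries were left out, values ranged as follows on the log2 scale: for insulin in control cells IL6 -0.2951 to 0.4477, CLCF1 -0.0429 to 0.1436 and STAT3 -0.0282 to 0.0144. They ranged for insulin in H1047R cells from -0.0182 to 0.0109 for OSMR and from -0.0497 to 0.0079 for STAT3. They ranged for H1047R in vehicle from -0.1288 to 0.0398 for LIF and from -0.0775 to 0.0541 for SOCS3, and for the difference of insulin effects from -0.0429 to 0.0206 for STAT3. The causes were not tested.

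Over all genes, an FDR of 0.05 called 1207 for insulin in control cells, 7811 for insulin in H1047R cells, 276 for H1047R in vehicle, 8774 for H1047R in insulin and 4848 for the difference of insulin effects, against 372, 4471, 36, 5340 and 2064 at 0.001. At 0.05 the difference called 5 of the 10 family genes. For H1047R in vehicle, 152 genes were called with no filter, 6 with a filter of 1 CPM in 3 libraries and 22 in DESeq2. When single libraries were left out, the counts ranged from 233 (without control insulin replicate 2) to 521 for insulin in control cells and from 14 to 100 for H1047R in vehicle. For H1047R in vehicle it was 14, 16 and 15 without control vehicle replicate 1, 2 or 3, and 18, 68 and 100 without H1047R vehicle replicate 1, 2 or 3.

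The replicate numbers did not pair the libraries: 1 of 18 same-number pairs correlated above 0.1 (r from -0.0832 to 0.1084), and 3 of 12 libraries correlated best with their own number. With a replicate block 366, 4435, 53, 5335 and 2062 genes were called in the 5 comparisons, and among the 10 family genes only OSMR in control cells lost its call (adjusted p = 0.001493, edgeR). IL6 and IL6R, with at most 38 and 60 counts in a library, are limited by depth. In an alternative chosen after seeing the data, H1047R vehicle replicate 1 was left out. The list of factors acting on ligand genes then had 1 call, lower, for insulin in control cells, against 0 with all libraries. The kinase list had 2, both larger, for the difference of insulin effects, against 1. With all libraries 1.15% of all genes tested fell in the first comparison and 4.58% had a larger value in the second. Nothing is read from these counts about the lists.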
